A study of Mus musculus with 2 samples.

Results

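Kinesins are motor proteins that walk along microtubules or take them apart, using ATP. The family was read from 1 two-colour oligonucleotide array of mouse fetal airway epithelium. Its members were chosen by name: every gene probe whose name in the scanner output began with Kif or Kifc followed by a number, which gave 78 of 41170 probes and 37 of 19748 named genes. They were divided by known function into 11 mitotic, 7 ciliary and 15 cargo transport motors and 4 others. At least 1 probe was well above background for 36 of the 37 genes. The exception was Kif2b, a mitotic microtubule depolymerase, whose single probe was not well above background at either age. Kif6 and Kif19a, further motors of motile cilia, were not analysed here.

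The array compared wild-type male CD-1 fetuses at 2 embryonic ages in days, E14.5 and E18.5, with 1 lung per age. Per the labels, airway epithelium inside the lobes was cut from stained frozen sections with a laser, the RNA was amplified in 1 round, and Cy3 (green) marked E14.5 while Cy5 (red) marked E18.5. With 1 sample per age and no dye swap, no difference below has a replicate check, dye and age cannot be told apart, and a gene is called higher or lower from the size of its ratio, 2-fold or more. Ratios are E18.5 over E14.5 on the log2 scale, and intensities are background-corrected, normalized, linear values of 1 probe, which can be set against each other between ages but not between genes.

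In dividing progenitors some kinesins build the spindle, move chromosomes and complete cytokinesis. In cells that have left the cycle and carry cilia, others move intraflagellar transport trains along the axoneme, set cilium length or work inside the axoneme itself. Further kinesins carry vesicles and organelles in most cells, and some of these are best known from neurons.

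By its median, the mitotic group stood apart from the other function groups. Of the 36 measured kinesins, 12 were at least 2-fold lower at E18.5, beside 10.1% of all 17249 measured genes (33.3% of the kinesins), and 7 were at least 2-fold higher, beside 17.3% of all genes (19.4% of the kinesins). The share of higher members was near that of all genes. The family median was −0.02, beside 0.06 over all genes, and covered group medians of −2.88 for mitotic, 0.35 for ciliary, 0.49 for cargo transport and 0.05 for other kinesins. Of the 12 lower members, 10 were mitotic, and the remaining lower members were Kif7 and Kif12.

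**Figure D1:**
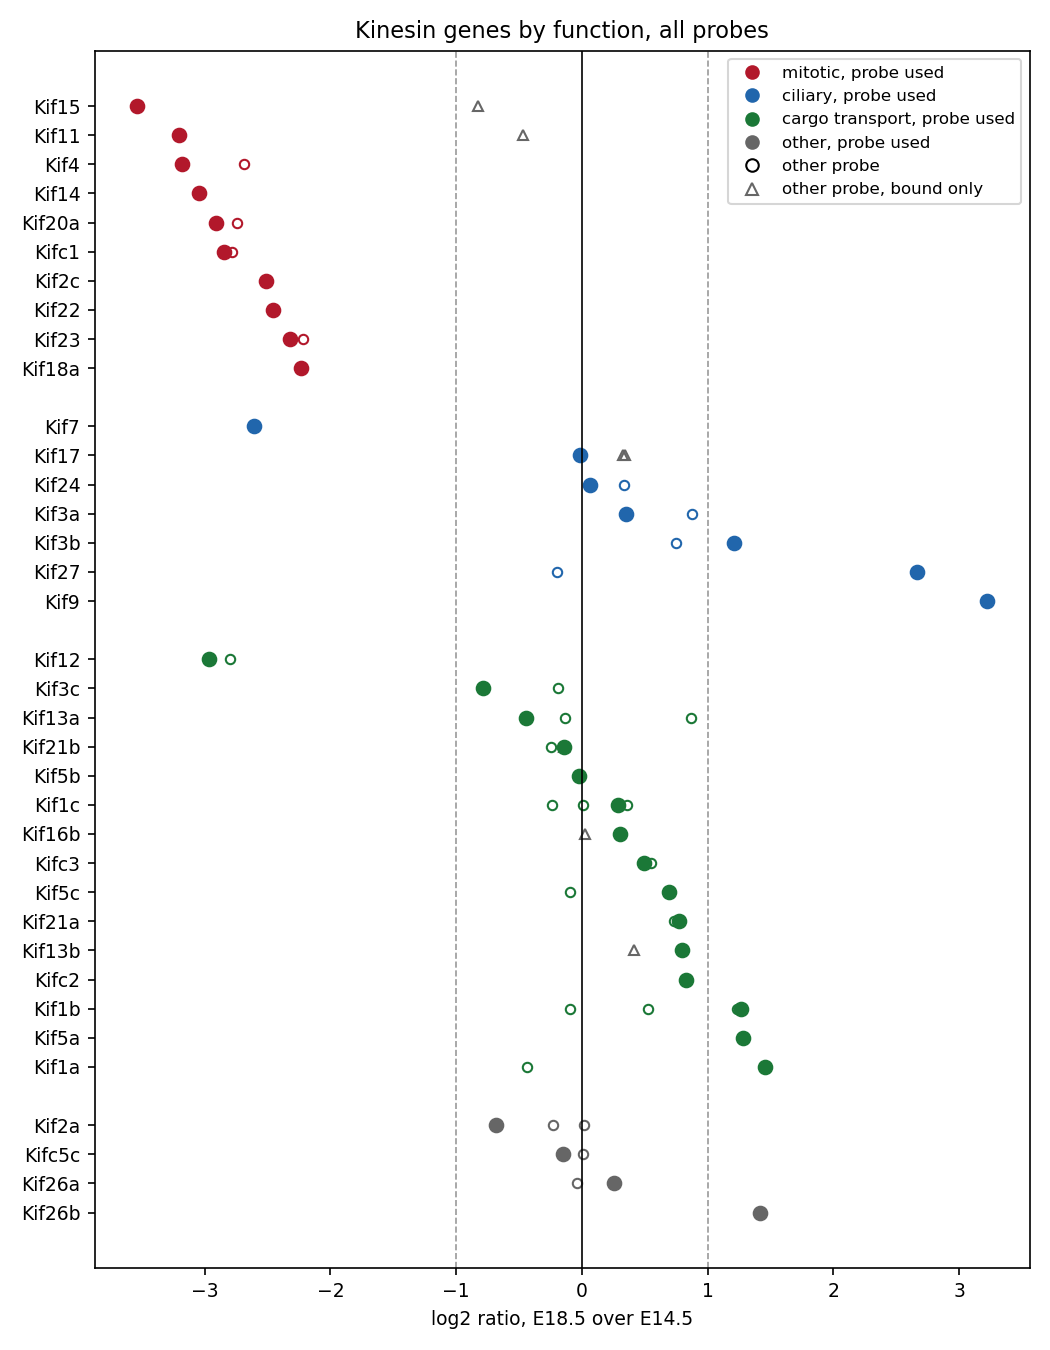
Log2 ratio of E18.5 over E14.5 (x axis) for each of the 36 measured kinesins (rows, grouped by function); filled points are the probe used, open circles other probes measured at both ages, triangles probes well above background at 1 age only, and dashed lines mark 2-fold. The 10 mitotic kinesins lie between −3.54 and −2.23, and Kif9 (3.22) and Kif27 (2.66) lie farthest to the right.

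Every mitotic kinesin that could be measured was lower at E18.5. The 10 were between 4.69-fold and 11.6-fold lower, and their ratios ran from −3.54 to −2.23. In material dissected from a whole tissue, fewer dividing cells and less of each RNA per cell cannot be told apart. In the same material all 5 proliferation markers were at least 2-fold lower, with a summed intensity of 232831 at E14.5 against 34832 at E18.5, and their part in the kinesin result was not tested.

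Among the motors that build the spindle, Kif15, which helps to hold spindle poles apart, had an intensity of 4584 at E14.5 against 395 at E18.5. This was the lowest ratio of the family (−3.54, 11.6-fold lower), read at chromosome 9, mm8 positions 122866878 to 122866937. Kif11, the motor that slides the spindle's antiparallel microtubules to separate its poles, had 9250.4 at E14.5 against 1006 at E18.5 (−3.20, 9.20-fold lower), from a probe on chromosome 19 between 37486409 and 37486468. Kif15 and Kif11 share this role and had the lowest ratios of the group. Each had a further probe well above background at E14.5 only, at least 1.78-fold lower for Kif15 and at least 1.38-fold lower for Kif11, and another that was not well above background at either age. Kifc1, a motor that walks to the minus end and focuses spindle poles, had 11759 and 1632 (−2.85, 7.20-fold lower), and its second probe gave −2.78. The RefSeq table assigns that second probe to Kifc5b, a near-identical copy. The coordinates of the first run opposite to the strand of Kifc1 and in the same order as those of the second. Both lie on chromosome 17, at mm8 positions 26659711 to 26659763 and 26653488 to 26653867. The first may thus also read Kifc5b, and the copies cannot be told apart.

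Motors of the chromosomes followed the same direction. Kif4, a chromokinesin that works with Prc1 at the central spindle, had 10198 at E14.5 against 1122 at E18.5 (−3.18, 9.09-fold lower), and its second, overlapping probe gave −2.68. Kif22, a chromokinesin that pushes chromosome arms towards the spindle equator, had 24415 and 4449.5 (−2.46, 5.49-fold lower). Kif18a, which limits chromosome movements at the spindle equator, had the smallest difference of the group, with 3493 and 744 (−2.23, 4.69-fold lower). Kif2c, a depolymerase that corrects faulty attachments at centromeres, had 1842 and 323 (−2.51, 5.69-fold lower).

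The motors of cytokinesis were in the same range. Kif20a, which brings the chromosomal passenger complex to the central spindle, had 45300.5 at E14.5 against 6042 at E18.5 (−2.91, 7.498-fold lower), and −2.74 by an overlapping probe. Kif23, a subunit of centralspindlin, had 8492 and 1694 (−2.33, 5.01-fold lower), with −2.22 by its second probe. Kif14, which recruits citron kinase to the midbody, had 2382 and 289 (−3.04, 8.24-fold lower). In each of the 4 mitotic genes with a second probe of the same file name measured at both ages, both probes were at least 2-fold lower. Their ratios differed by at most 0.50.

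Further mitotic kinesins lay on the array under older names and were matched through RefSeq. Kif18b, a depolymerase of astral microtubules, had 3111 at E14.5 against 453 at E18.5 (−2.78, 6.86-fold lower). Kif20b, a cytokinesis motor, had 1801 and 299.96 by its brightest probe (−2.59, 6.004-fold lower), −0.99 by its second, and at least 1.56-fold lower by its remaining probe. With these counted, and Kifc5b apart from Kifc1, 15 of 39 kinesins (38.5%) were at least 2-fold lower, beside 10.1% of all genes. At least 2-fold higher were 7 (17.9%), near the 17.3% of all genes. Since Kifc1 and Kifc5b cannot be told apart, the count of lower members may hold the same signal more than once.

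**Figure D2:**
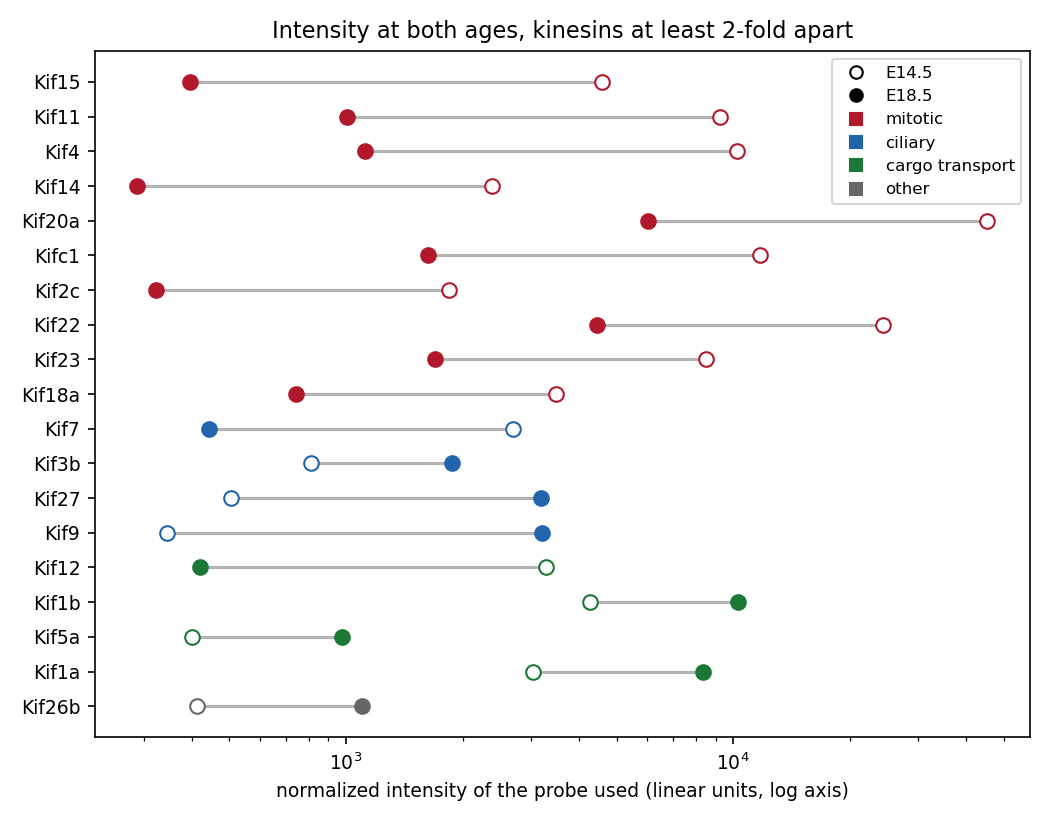
Normalized intensity of the probe used (x axis, linear units on a log axis) at E14.5 (open points) and E18.5 (filled points) for the 19 kinesins at least 2-fold apart, coloured by function. The mitotic kinesins move left, from 1842 or more at E14.5, and Kif9 and Kif27 move right, from 344 and 504 to 3213 and 3193.

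Partner genes of the mitotic kinesins showed the same direction with 1 exception. Of 18 listed genes, 17 were lower and 1 was higher by 2-fold or more, with a median of −2.28, beside 10.1% lower and 17.3% higher among all genes. The lowest were Nusap1, a spindle protein (−4.14, second probe −2.26), Birc5, the survivin subunit of the chromosomal passenger complex (−3.46), and Cenpe, a kinetochore kinesin that lacks the Kif name (−3.27, another probe −1.11). At the other end were the kinase Aurka (−1.44), the cytokinesis factor Ect2 (−1.58, second probe −0.97) and Cit, the citron kinase that Kif14 recruits. Cit had 1609 at E14.5 against 6962 at E18.5 (2.11, 4.33-fold higher), against −0.32 by another of its 3 probes.

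The promoters of the kinesins were searched for short motifs. RefSeq promoter windows of 300 bases (250 before and 50 after the annotated start, GRCm38.p6) were matched for 29 of the 37 kinesins. The cell cycle homology region (CHR), a short element through which many late cell cycle genes are repressed outside division, was searched as TTTGAA or TTCGAA on both strands, and TTCGAA reads the same on both. It was found in 8 of 10 mitotic kinesins (80.0%), 2 of 7 ciliary (28.6%) and 1 of 9 cargo transport kinesins (11.1%), beside 21.7% of 27025 genes in the table. The mitotic members without it were Kif18a and Kif2b. These 10 promoters are not those of the 10 lower mitotic kinesins, since they include Kif2b, which was not measured, and lack Kif20a, for which no window was matched. They also include Kifc1, whose probes may read Kifc5b. Within 50 bases of the start, a limit set after the positions were seen, it was found in 6 of 10 mitotic kinesins, beside 6.12% of all genes. The box bound by NF-Y, searched as CCAAT on both strands, was in 7 of 10 mitotic kinesins (70.0%), beside 41.1% of all genes. Just before the start, the windows of Kif14, Kif27 and Kif1a (the one with the match) read AG after a stretch rich in C and T. Kif2c reads AG there without such a stretch. Introns end in AG, so these annotated starts may be internal exon edges and their windows may not be promoters. A match is a description of the letters and not a shown binding site.

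The 150 bases before the start are shown for 3 mitotic kinesins with a CHR match close to it, with every motif match in capitals. In Kif11, at chr19:37376232-37376381 (plus strand), the CHR match began 19 bases before the start and the CCAAT match, on the opposite strand, 45 bases before it. Kif22, at chr7:127042421-127042570 (minus strand), had them 17 and 54 bases before the start. Kif15, at chr9:122950931-122951080 (plus strand), had a CHR match 19 bases before the start and no CCAAT match in the window.
Kif11: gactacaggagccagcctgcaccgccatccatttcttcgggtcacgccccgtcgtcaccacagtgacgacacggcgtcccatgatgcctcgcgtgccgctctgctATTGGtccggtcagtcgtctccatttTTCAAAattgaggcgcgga
Kif22: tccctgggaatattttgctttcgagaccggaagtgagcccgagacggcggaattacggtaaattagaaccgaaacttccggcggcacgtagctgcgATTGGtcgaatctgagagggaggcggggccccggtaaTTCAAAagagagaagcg
Kif15: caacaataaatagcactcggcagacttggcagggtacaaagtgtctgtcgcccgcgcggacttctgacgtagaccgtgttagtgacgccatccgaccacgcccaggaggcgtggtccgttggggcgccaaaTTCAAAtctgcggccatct
The matches were not particular to members that were lower. Kif24, which was within 2-fold, had a CHR match 26 bases before its start, and Kif26b, which was at least 2-fold higher, had one 9 bases before its start.

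Ciliary kinesins went in both directions. Among the 7 members, 3 were higher and 1 was lower at E18.5 by 2-fold or more, and 3 lay within that limit, beside 17.3% higher and 10.1% lower among all genes. In the same material, all 6 measured markers of ciliated cells, of 7 listed, were at least 2-fold higher, with a summed intensity of 14349 at E14.5 against 133376 at E18.5. Tekt1 alone had 7211 and 65539 of these sums, and another probe of Dnah5 gave 0.23. Hydin, also a marker here, is listed again among the partners below. The part of these markers in the kinesin result was not tested.

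The motors of motile cilia were the highest of the family. Kif9, a motor of the axoneme's central apparatus in motile cilia and flagella, had 344 at E14.5 against 3213 at E18.5 (3.22, 9.34-fold higher), more than 97.3% of all genes. Its single probe is annotated to chromosome 9 from 110366155 to 110369733 on mm8, an interval longer than the probe's 60 bases. Kif27, a relative of Kif7 with a known role in motile cilia, had 504 and 3193 (2.66, 6.34-fold higher), from a probe on chromosome 13 between 58297781 and 58297840 on mm8. A second probe under the same name, from 58297866 to 58297925, gave −0.20, with 107 and 93.1. Its coordinates run opposite to those of the first and to the RefSeq strand of Kif27, as for 1.12% of all named probes with a coordinate, so by its coordinates it reads the opposite strand.

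Anterograde intraflagellar transport depends on a heterotrimer of Kif3a, Kif3b and the accessory subunit Kifap3. Kif3b had 813 at E14.5 against 1881 at E18.5 (1.21, 2.31-fold higher) and 0.74 by its second probe, so that the median of both (0.98) fell below 2-fold. Kif3a had 2570 and 3282 (0.35, 1.28-fold), and 0.88 by its second probe. Kifap3, named after its value was seen, was at 0.07, with another of its 3 probes at 1.32. Both motor subunits were thus above 0 by both of their probes, and by less than Kif9 and Kif27. Kif17, a homodimer of the same kinesin class that enters cilia and dendrites, was near the background at both ages, with 113 and 112 (−0.02), and its other probes were well above background at E18.5 only, at least 1.25-fold and 1.27-fold higher.

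The motors of the centriole and of Hedgehog signalling differed from these. Kif24, a depolymerase that acts on centrioles to hold back cilium formation, had 599.7 and 628 (0.07), and 0.34 by its second probe. Kif7, the motor that organises the tip of primary cilia and through which Hedgehog signals reach the Gli factors, had 2697 at E14.5 against 443 at E18.5 (−2.61, 6.09-fold lower). It has 1 probe, at mm8 positions 79571915 to 79571974 of chromosome 7, for which the scanner gave −3.03. Its ratio fell within the range of the mitotic kinesins, although it is not a mitotic motor.

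Partners of the ciliary kinesins showed both directions too. Of 20 listed genes, 13 were higher and 3 lower by 2-fold or more, with a median of 1.73, beside 17.3% and 10.1% of all genes. The highest were Hydin, a protein of the central apparatus (5.01), Cfap221, another of its proteins (2.30, with an E14.5 intensity of 97.5, near the background), and Dync2h1, the dynein that returns intraflagellar trains to the cell body (2.24, and between 0.14 and 2.76 by its other measured probes). The lowest were Gli3 (−1.94), Gli2 (−1.64, second probe −0.19) and Sufu (−1.26, another probe −0.40), which encode Hedgehog transcription factors and their inhibitor downstream of Kif7. Gli1, a further Gli factor of the list, named after its value was seen, was dim and within 2-fold, with 157 and 128 (−0.29).

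**Figure D3:**
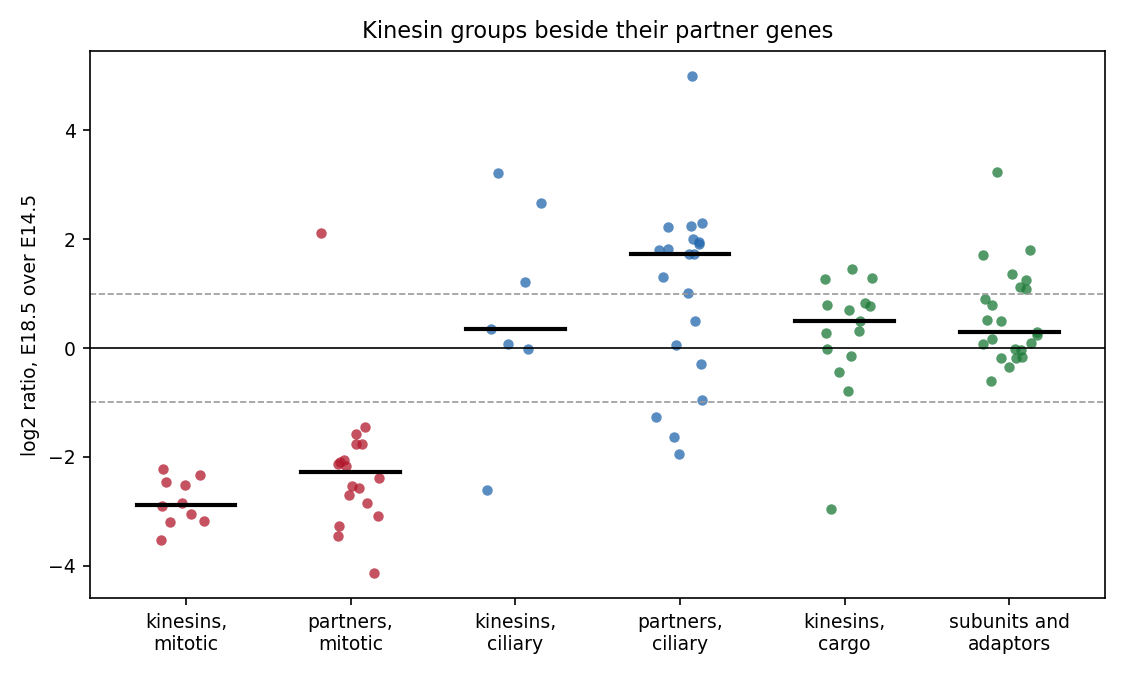
Log2 ratio of E18.5 over E14.5 (y axis) for kinesins of 3 functions and for the genes listed as their partners (x axis); each point is a gene, black bars are medians and dashed lines mark 2-fold. The medians are −2.88 and −2.28 for mitotic kinesins and partners, 0.35 and 1.73 for ciliary ones, and 0.49 and 0.30 for cargo transport.

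RFX factors, which switch on ciliary genes through the X-box, were searched by their partial site, GTTGCC or GTTACC on both strands. It was in 4 of 7 ciliary kinesins (57.1%), 2 of 10 mitotic (20.0%) and 3 of 9 cargo transport kinesins (33.3%), beside 20.8% of all genes. The forkhead core, searched as TGTTTAC or TGTTTGC on both strands, was in 0 of the 29 kinesin windows, beside 9.47% of all genes, which says only that these letters are not in this window. The 150 bases before the start are shown for 3 of the 4 ciliary kinesins with a partial site, in capitals with any CCAAT match, and for Kif7, which had no motif match. The one not shown is Kif24 (0.07), with a partial site 6 bases before its start. In Kif9, whose downstream start of the 2 in the table is shown at chr9:110476844-110476993 (plus strand), the partial site began 27 bases before the start. It was 73 bases before the start in Kif17, at chr4:138262101-138262250 (plus strand), and 98 bases in Kif3a, at chr11:53567219-53567368 (plus strand), which had a CCAAT match on the opposite strand 18 bases before its start. The Kif7 stretch is chr7:79715708-79715857 (minus strand).
Kif9: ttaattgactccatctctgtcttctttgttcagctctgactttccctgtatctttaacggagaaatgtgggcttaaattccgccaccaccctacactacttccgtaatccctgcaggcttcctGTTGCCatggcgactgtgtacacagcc
Kif17: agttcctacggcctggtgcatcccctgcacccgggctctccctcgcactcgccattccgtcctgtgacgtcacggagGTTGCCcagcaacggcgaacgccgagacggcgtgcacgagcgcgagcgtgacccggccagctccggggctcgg
Kif3a: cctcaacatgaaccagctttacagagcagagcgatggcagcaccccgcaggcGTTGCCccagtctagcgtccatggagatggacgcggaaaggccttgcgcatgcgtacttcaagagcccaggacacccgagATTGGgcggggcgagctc
Kif7: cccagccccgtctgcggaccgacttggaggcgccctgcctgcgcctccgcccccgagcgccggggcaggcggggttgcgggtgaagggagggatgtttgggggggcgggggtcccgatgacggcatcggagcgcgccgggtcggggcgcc
Members with a partial site differed in their ratios, from −0.02 for Kif17 to 3.22 for Kif9. Kif27 had none, but its window may not be its promoter, as said above for the CHR matches.

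**Figure D4:**
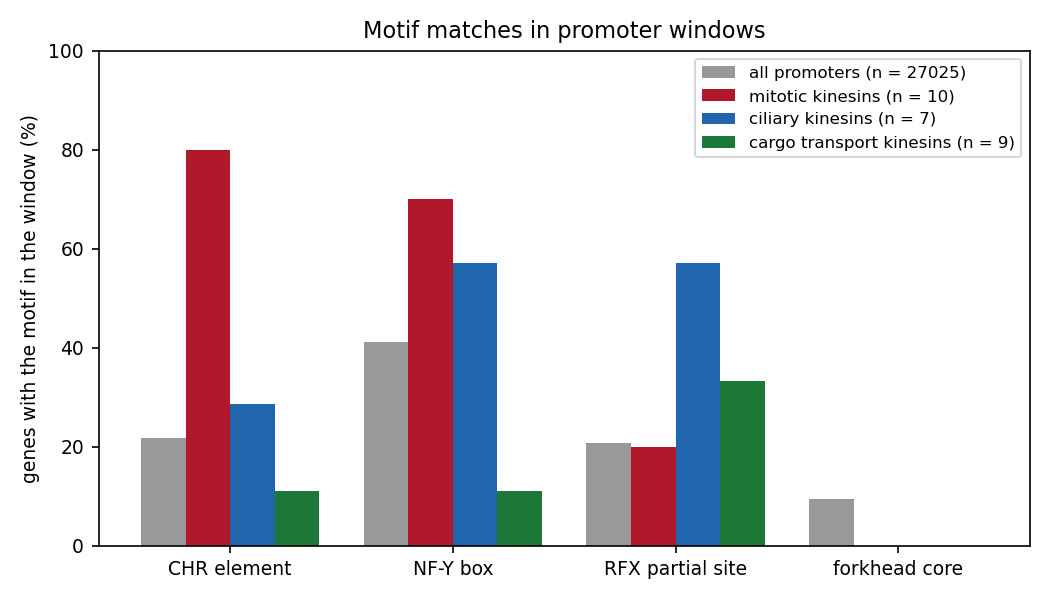
Share of genes (y axis, percent) with each of 4 motifs in the 300-base promoter window (x axis), for all 27025 genes in the RefSeq table (grey) and for 10 mitotic, 7 ciliary and 9 cargo transport kinesins. The CHR element stands at 80.0% of mitotic kinesins against 21.7% of all genes, and the RFX partial site at 57.1% of ciliary kinesins against 20.8%.

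Most cargo transport kinesins lay within 2-fold. Among the 15 members, 3 were higher and 1 was lower by 2-fold or more and 11 lay between, with a median of 0.49. The shares, 20.0% higher and 6.67% lower, were near those of all genes, 17.3% and 10.1%. The group held 10 members above 0 and 5 below.

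The higher members were motors known from axonal transport. Kif1a, which carries synaptic vesicle precursors, had 3040.2 at E14.5 against 8338 at E18.5 (1.46, 2.74-fold higher) by the probe nearer the 3′ end of the gene, and 251 and 185 (−0.44) by its second probe. Kif1b, a carrier of mitochondria and vesicles, had 4274 and 10295 (1.27, 2.41-fold higher). Its 4 probes fell in pairs by the transcript they were designed on: 1.27 and 1.23 for one RefSeq transcript, and 0.53 and −0.10 for the other. Beside the first pair's second probe, with 286 and 672, the other pair had 598 and 862, and 512 and 479.5. Kif5a, a neuronal form of conventional kinesin, had 401 and 975 (1.28, 2.43-fold higher), and its second probe was not well above background at either age. The other forms of conventional kinesin lay within 2-fold: the ubiquitous Kif5b, with 47711 and 46907 (−0.02), and the neuronal Kif5c, with 513 and 828 (0.69, second probe −0.10).

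Other cell types can carry these motors. Of 9 measured neuron markers, of 10 listed, 0 were higher and 1 was lower by 2-fold or more, and 3 lay above 0 and 6 below. Their summed intensity was 7085 at E14.5 against 5011 at E18.5, of which Map2, the lower one, had 3085 and 1117. Of 6 neuroendocrine markers, 4 were at least 2-fold higher, with a summed intensity of 4959 at E14.5 against 93647 at E18.5. Calca alone had 418 and 81145 of these sums. The part of neurons and neuroendocrine cells in the Kif1a, Kif1b and Kif5a values was not tested.

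Kif12, a motor known from kidney and bile duct epithelium, stood apart from the group. It had 3284 at E14.5 against 420.1 at E18.5 (−2.97, 7.82-fold lower), and its second probe, with 1666 and 239, gave −2.80. The probe used lay on chromosome 4 from 62652038 to 62652097 on mm8. Like Kif7, it was lower by as much as the mitotic kinesins without belonging to them. The 150 bases before its start, at chr4:63172132-63172281 (minus strand), are shown for comparison and held no motif match.
Kif12: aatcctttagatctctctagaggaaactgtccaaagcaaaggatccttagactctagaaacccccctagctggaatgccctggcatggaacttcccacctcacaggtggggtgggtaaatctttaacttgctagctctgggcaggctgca

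The remaining cargo motors lay within 2-fold by the probe used. Kifc2 (0.83), Kif13b (0.80), Kif21a (0.77, second probe 0.73), Kifc3 (0.49 and 0.55), Kif16b (0.31) and Kif1c (0.28) lay above 0. Kif13b was dim, with 126 at E14.5 against 219 at E18.5, and the scanner software's ratio for it was 1.38, past 2-fold. Kif21b (−0.14) and Kif3c (−0.79, −1.08 by the scanner software) lay below 0. The endosome carrier Kif13a was at −0.44, −0.14 and 0.87 by its 3 probes, which gives no single direction. Their E14.5 and E18.5 intensities were 954 and 702 for the first, 186 and 169 for the second, and 408 and 743 for the last.

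Of the 4 kinesins outside these groups, Kif26b, an atypical kinesin without motor activity known from kidney development, had 412 and 1097 (1.41, 2.66-fold higher) by the probe under its own name. A dim probe under an older name, D230039L06Rik, which RefSeq lists as a synonym of Kif26b, had 103 and 107 (0.06), so the 2 probes do not give the same call. Kif26a, a relative of Kif26b, was at 0.26. Kif2a, a depolymerase with roles in mitosis, neurons and cilium disassembly, had 4244 and 2643 (−0.68), with −0.23 and 0.01 by its other probes, so it did not share the ratio of its mitotic relative Kif2c. Kifc5c, which RefSeq now lists as a pseudogene, was dim at both ages, with 156 and 140.4 (−0.15).

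Subunits and cargo adaptors of the transport kinesins were higher or within 2-fold. Of 23 listed genes, 7 were higher and 0 lower by 2-fold or more and 16 lay between, with a median of 0.30, beside 17.3% higher and 10.1% lower among all genes. The largest ratios belonged to Fez1, an adaptor of conventional kinesin (3.24, 9.45-fold), Sybu, which links it to vesicles and mitochondria (1.81), and Rab3a, a vesicle GTPase carried by Kif1a and Kif1b (1.71). The smallest were those of the mitochondrial adaptor Trak2 (−0.60), of Fez2 (−0.36) and of the light chain Klc1 (−0.19, second probe −1.06).

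The dissected material carried epithelial markers at both ages. All 7 genes listed for airway epithelium were well above background, with 2 at least 2-fold higher and 5 within 2-fold. Most of them are not particular to the airway and no markers of distal epithelium were listed. The list therefore does not separate airway from distal epithelium. Markers of other cells were present too: of 5 genes each, 3 leukocyte, 2 endothelial and 3 erythroid markers were higher by 2-fold or more and 1 erythroid marker was lower. Of 7 smooth muscle and mesenchyme markers, 2 were lower by 2-fold or more. The 3 club cell markers were between 171-fold and 262-fold higher. Summed intensities of leukocyte markers were 7771 at E14.5 against 19358 at E18.5, and those of erythroid markers 125585 against 524186. Endothelial markers had 11793 against 85591, of which Kdr alone had 4090 and 71669. Summed intensities of smooth muscle and mesenchyme markers were 416998 at E14.5 against 300421 at E18.5. Acta2 alone had 192297 and 66996, and of the 7 markers 3 lay above 0 and 4 below. The part of these markers in the kinesin values was not tested.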

How the data were processed

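The study sought effectors of the ciliary transcription factor FOXJ1. The deposited scanner outputs of both samples did not differ in any of their 115 columns and count as 1 array. The scanner tables deposited by the authors hold linear mean and local background intensities, processed intensities and the red-to-green log10 ratio. The submitters' processing notes name Agilent Feature Extraction 9.5.3.1. The scanner tables also hold flags of 0 or 1, and probe coordinates on mm8, per the file headers. The authors' value table holds intensities equal to the processed ones times 0.339, floored at 15, with column medians of 129 at E14.5 against 130.2 at E18.5. It was not centred. No source used here explains that factor.

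Mean intensities were background-corrected with normexp (offset 50) and loess-normalized within the array (span 0.3, 4 iterations, control and outlier spots at weight 0). R 4.3.3 with limma 3.58.1 did this. The offset pulls dim ratios towards 0, and loess hides a shift shared by most genes. Both steps were tested together on simulated signals of bright probes. Of 43379 probe spots, 160 were outliers and were left out, and repeated spots were averaged. No probe was saturated (0 probes). The E14.5 channel had 75.2% of probes well above background, the E18.5 channel 78.7%. A gene's value is that of its brightest probe well above background in at least 1 channel. A probe well above background in 1 channel only gives a bound, written "at least N-fold": the bright signal is divided by the dim one, or by the lowest signal well above background in that channel where this is larger. Such bounds are open to dye bias. Names were updated through RefSeq genes of GRCm38.p6, which named 33099 of 41170 probes. Promoters and strands also came from RefSeq. Python 3.11.15, numpy 2.4.6, pandas 2.3.3 and matplotlib 3.10.9 handled tables and plots.

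With 1 array no p-value was computed. As technical spread, log2 ratios had a median SD of 0.05 between repeated spots (245 probes) and 0.33 between different probes of a gene (6892 genes). For 22 kinesins, grouped by name in the file, the latter was 0.24. All measured kinesins are named, with intensities for those 2-fold apart or with probes 2-fold apart, and the 3 largest and 3 smallest ratios of each partner list are named. Members and lists were chosen with earlier results of these data known. Alternatives covered the background correction, normalization, value table, probe choice, filter on dim probes and member names.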

Additional observations from a re-analysis of the deposited data

How the results depend on the processing

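All 12 kinesins at least 2-fold lower at E18.5 stayed so under the 6 alternatives to the array processing and probe choice: the scanner software's log ratio, a normexp offset of 16, median centring, the authors' value table, the median over probes, and only probes well above background in both channels. The last could change no kinesin value, since every probe used was well above background at both ages. For the kinesins, the authors' value table gave the same ratios as the scanner software, so it was no separate check. Of the 7 higher members, 4 stayed so under the 6 alternatives. One of them was Kif26b, whose differing probe under an older name entered none of these 6. With the median over a gene's probes, Kif1a (0.51), Kif1b (0.88) and Kif3b (0.98) came below 2-fold, which left 4 kinesins and 1 cargo transport kinesin higher, and the mitotic median was −2.48 because bounds of dim Kif11 and Kif15 probes entered it. The same values (4, 1 and −2.48) were found with opposite-strand probes also left out, an alternative chosen after seeing the data, and Kif27 then stood at 2.66 in place of 1.23. With the scanner software's ratio or the authors' value table, 2 cargo transport kinesins were lower, Kif3c (−1.08) joining Kif12, and Kif13b (1.38) was higher. The scanner software's ratio put 2691 genes of the array 2-fold or more lower, against 1738, and the median over all genes was −0.05 in place of 0.06. The number of arrays limits the precision of each value. The family median turned positive with median centring (0.08) and with the median over probes (0.04). No paired analysis was possible because each group has 1 sample, and for the same reason no sample could be left out in turn.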

Other observations

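In the 30 kinesins with several probes, 13 probes were not well above background at both ages. Of these, 11 lay upstream of the probe nearest the 3′ end of the gene, by 4297 to 231014 bases on mm8, and the other 2, of Kif13b and Kif17, were the probe nearest that end. The probe used was the one nearest the 3′ end in 23 of the 30 genes. The mitotic genes Kif11, Kif14, Kif15 and Kif18a had probes of this kind 15618 to 57351 bases upstream. For these genes, the fold differences above therefore come from 1 probe each.

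Probes of the same gene differed by 2-fold or more in 4 of 22 kinesins with several probes measured at both ages (18.2%), grouped by name in the file. The share over 6892 genes was 23.0%, grouped by current name, so the shares were not counted alike. The 4 kinesins were Kif13a, Kif1a, Kif1b and Kif27, none of them in the mitotic group. From that group only Kif4, Kif20a, Kif23 and Kifc1 could be counted here, and the probes of Kif4 and of Kif20a overlap. By current name, probes of the mitotic Kif20b (−2.59 and −0.99) and of Kif26b (1.41 and 0.06) also differed by 2-fold or more. Well above background at both ages were 30324 of all probes (73.7%) and 64 of the 78 kinesin probes (82.1%).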
